A study of Mus musculus with 24 samples.

Results

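Dppa2, Dppa4, Dppa3, Dppa5a, Dazl, Ddx4, Mael, Stk31 and Sycp3 are genes of the germ line and the early embryo, and their RNA was measured in mouse embryonic stem cells (ESCs) and in neural progenitor cells (NPCs) made from them. They were chosen by name, as genes known from germ cells and the embryo before implantation, with earlier results of these data known, and are 9 of the 21909 gene symbols in the RNAseq tables. The study asked which parts of the genome lie at the nucleolus in ESCs and NPCs, with 24 samples of Nucleolar-DamID, ChIPseq and RNAseq. RNAseq comprised 3 ESC and 3 NPC samples of poly(A) RNA, and the labels say that each cell type's RNA came from 3 separate culture dishes. The ESCs were of the E14 line, grown on gelatin in N2/B27 medium with LIF at 1000 U/ml, the GSK3 inhibitor CHIR99021 at 3 µM and the MEK inhibitor PD0325901 at 1 µM (2i medium). The NPCs were derived from ESCs as embryoid bodies over 8 days in a medium with fetal calf serum. Retinoic acid at 2 µM was present during the last 4 days. The authors describe the product as Pax6-positive radial glia. Medium, time in culture and cell type changed together, and the labels name no batch that ESC and NPC samples share, so cell type, medium and batch cannot be told apart.

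Genes of this kind are silent in most somatic cells, and DNA methylation and repressors such as the Polycomb complex PRC1.6 keep many of them so. PRC1.6 reaches DNA through E2F6 with its partner DP1 and through MGA with its partner MAX, and its loss in ESCs is known to raise meiotic and germ cell genes. ESCs in 2i medium have little DNA methylation and transcribe a part of this group, including partners that act in the cleavage-stage embryo, while others are mainly active in the germ line. Leaving pluripotency is accompanied by new DNA methylation at many of these promoters, which was not measured here.

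The values of the tables are RPKM, in which the authors scaled each gene's reads by its length in kilobases and by the reads of the sample. The length behind them is that of the whole gene, introns included. Among values below 6 reads, 97.1% to 97.7% in each sample were whole reads, within 0.05 of a read, once RPKM was multiplied by the distance from the first to the last base of the gene, against 9.94% to 10.8% with the joined exons. The sources say that coverage of exons was counted, so a gene with long introns has a small RPKM even where its reads are many. Stk31, whose gene is 22.8 times as long as its joined exons, is the extreme among the 9. The same steps put the depth of ESC replicates 1, 2 and 3 at 34.0, 33.7 and 30.8 M reads, and that of NPC replicates 1, 2 and 3 at 30.1, 27.2 and 32.3 M reads. Levels of different genes are compared below after rescaling RPKM from the length of the gene to that of its joined exons, called exon RPKM, other than in the distances between patterns. Intervals and floors from these reads cover counting error only. They pool the reads of each cell type and leave out the spread between samples. PCR copies of a molecule were not removed by molecular identifiers either. Samples of a cell type differed by more than counting error, with chi-square per degree of freedom of 3.42 to 9.65 without ESC replicate 3. Against that sample the values were 339 and 366.

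ESC replicate 3 stood apart from the other ESC samples. Its RPKM summed to 140366, against 104274 and 106146 in the other ESC samples and 85575 to 86785 in NPCs. Its correlation with ESC replicates 1 and 2 over 7758 genes on the log2 scale was 0.963 and 0.966, against 0.9985 between those samples. The difference followed exon length. In the fifth of genes with the shortest exons its median log2 ratio over the mean of replicates 1 and 2 was 0.68, and in the fifth with the longest it was -0.51, while in NPC replicate 3 these medians were 0.01 and -0.01. Among the 9 genes the shortest, Dppa5a with 0.619 kb of exon and Dppa3 with 0.892 kb, were 2.41 and 2.05 times as high in ESC replicate 3 as in the mean of the others. Dppa4, Mael and Stk31, with 1.662, 1.733 and 3.237 kb, were 1.27, 1.26 and 1.28 times as high, and Dazl and Dppa2, with 3.82 and 2.447 kb, 1.10 and 1.04 times. Sycp3, with 1.264 kb, at 0.946 times, and Ddx4, with 3.014 kb, at 0.734 times, were lower than in the others, while the groups of all genes with exon lengths like theirs had median log2 ratios of 0.68 and 0.26, so beyond Dppa5a and Dppa3 the ratios of the 9 did not follow exon length closely. Values of single samples are given in the order of replicates 1, 2 and 3, and a log2 difference between ESCs and NPCs is also given without this sample where leaving it out moved it by at least 0.1.

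**Figure D1:**
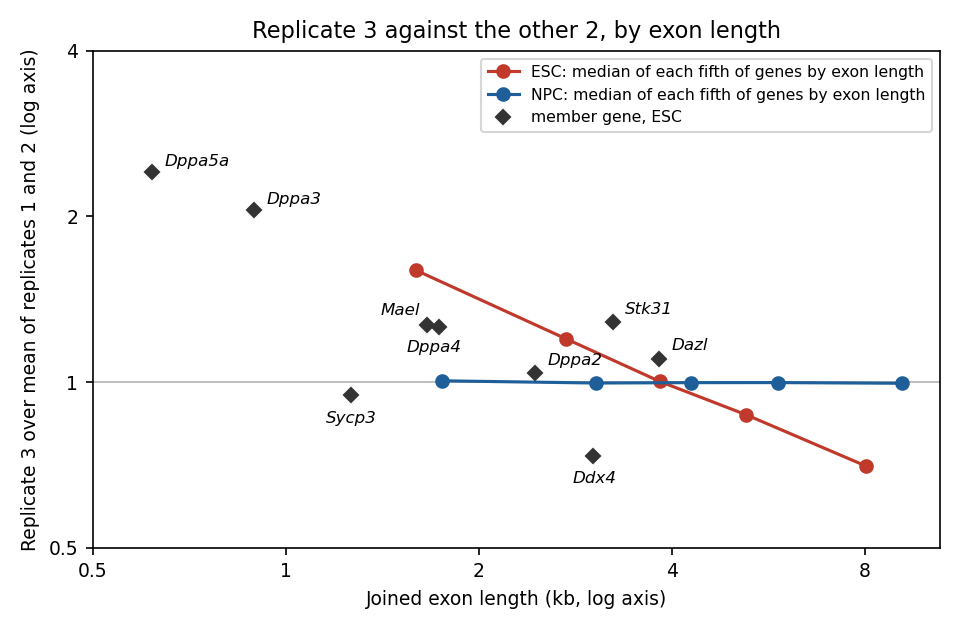
Ratio of replicate 3 over the mean of replicates 1 and 2 (log axis) against joined exon length (kb, log axis). Lines join the medians of 5 equal groups of genes in ESCs (red) and NPCs (blue), and black diamonds are the 9 genes in ESCs. The ESC line falls from short to long genes while the NPC line is flat, and Dppa5a and Dppa3 have the shortest exons and the highest ratios of the 9.

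The cell labels were checked against markers first, with levels as exon RPKM and calls from limma on log2(RPKM + 1). Pou5f1, Nanog, Sox2, Zfp42, Esrrb, Klf4, Klf2, Tfcp2l1 and Tbx3, the 9 ESC markers, summed to 1491, 1507 and 1512 exon RPKM in the ESC samples and to 27.8, 29.3 and 29.5 in the NPC samples, where Tbx3 at 14.9 was the most abundant, followed by Sox2 at 8.43. All 9 were called lower in NPCs. Of 7 NPC markers, Pax6, Nes, Sox1, Hes5 and Neurog2 were called higher in NPCs and Tubb3 lower, while Fabp7 was below the filter on low values, and Hes5 and Neurog2 were at 0 in every ESC sample. Their sum was 42.5, 48.2 and 49.8 exon RPKM in ESCs, led by Tubb3 at 41.3, and 82.4, 83.3 and 84.2 in NPCs, led by Nes at 44.7. The NPC samples also held endoderm markers, of which Sox17, Gata4, Gata6 and Foxa2 were called higher and Afp was below the filter and at 0 in ESCs. The 5 endoderm markers summed to 145, 150 and 152 exon RPKM in NPCs, with Gata4 the most abundant at 110 and Gata6 at 34.5, against 0.820, 0.930 and 0.546 in ESCs. In every NPC sample this sum was above that of the 7 NPC markers, among which Pax6 had a mean of 3.77 exon RPKM. NPC is therefore used here as the label of the cultures. Of 3 primed epiblast markers, Pou3f1 was higher in NPCs, Otx2 lower and Fgf5 below the filter, and their sum was 6.85, 6.07 and 4.55 exon RPKM in ESCs, led by Otx2, and 5.68, 5.16 and 4.66 in NPCs, led by Fgf5. Of 5 mesoderm markers Kdr alone passed the filter and was called higher in NPCs, and Krt7 likewise of 4 trophoblast markers. The mesoderm list summed to 6.02, 6.43 and 4.82 exon RPKM in ESCs, led by T, and 16.6, 15.6 and 14.8 in NPCs, led by Kdr, and the trophoblast list to 1.70, 2.25 and 2.92 in ESCs, led by Cdx2, and 7.10, 7.65 and 7.56 in NPCs, led by Krt7. As RPM (defined below) more of these genes were tested. Fabp7, Fgf5 and Gata3 of the trophoblast list were higher in NPCs by 5.19, 5.53 and 4.04 (limma, adjusted p 1.80e-06, 4.41e-06 and 9.44e-07). T, Mixl1 and Eomes of the mesoderm list fell by 5.30, 1.10 and 1.42 and Cdx2 fell by 1.41 (limma, adjusted p 5.63e-07, 0.0219, 0.000702 and 0.000961), so the mesoderm and trophoblast lists moved in both directions. Without ESC replicate 3 the differences of Mixl1, Eomes and Cdx2 were -1.22, -1.60 and -1.24, and the call of Mixl1 was lost without ESC replicate 1 or 2 (adjusted p 0.0549 and 0.0678). Many of these markers reached a filter in a single cell type and had to differ, so their calls add little to their levels. The part of these other cell types in the values of the 9 genes was not tested.

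**Figure D2:**
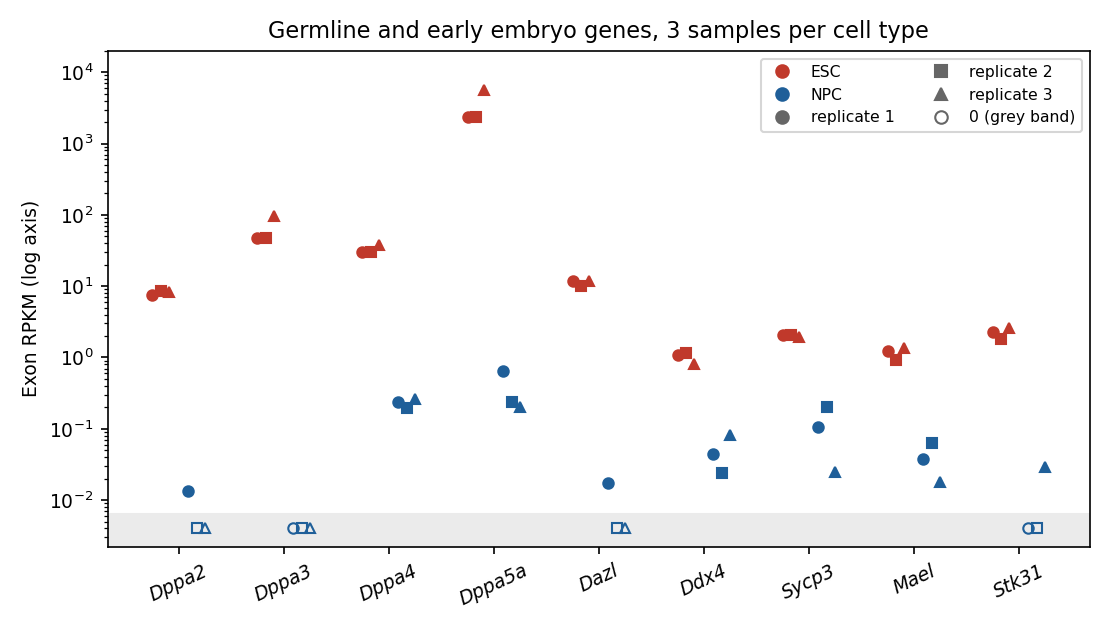
Exon RPKM (log axis) of the 9 genes in each of the 3 ESC samples (red) and 3 NPC samples (blue), with a symbol for each replicate number. Open symbols in the grey band are samples in which the gene was at 0. Each gene's ESC samples all lie above its NPC samples, and the ESC levels run from a mean of 1.02 for Ddx4 to 3476 for Dppa5a.

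Dppa2 and Dppa4 encode partner proteins with a SAP domain that bind CpG-rich promoters and activate genes of the cleavage-stage embryo. Dppa4 (chr16:48283733-48294237, plus strand, GRCm38) had 4.75, 4.74 and 6.02 RPKM in ESCs and 0.0377, 0.0313 and 0.0411 RPKM in NPCs. Its NPC samples were close to each other and far below all ESC samples. The NPC values stand on 12, 9 and 14 reads, and the rate of reads was 139 times as high in ESCs as in NPCs (exact 95% interval 99.9 to 200). On log2(RPKM + 1), the scale of the test, Dppa4 fell by 2.57 in NPCs (limma, SE 0.0906, adjusted p 9.40e-07), and the difference was -2.47 without ESC replicate 3. This scale understates the change of genes near or below 1 RPKM. In whole cultures, fewer cells with an RNA and less RNA in each cell cannot be told apart, here and for the other genes.

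In GENCODE M21, Dppa2 starts 9.67 kb beyond the end of Dppa4 on the same strand (chr16:48303908-48319723). In RefSeq Dppa2 starts further along, at chr16:48310274. It had 2.01, 2.25 and 2.21 RPKM in ESCs and 0.00359 RPKM in NPC replicate 1, and was at 0 in NPC replicates 2 and 3. The NPC value of replicate 1 is a single read. Relative to their mean, its ESC samples varied by less than those of Dppa3, Dppa4, Dppa5a and Dazl, and none of them came near the NPC values. ESCs held 1962 reads against 1 in NPCs, a ratio of 1786 with an exact 95% interval of 320 to 70570. Dppa2 fell by 1.66 in NPCs on log2(RPKM + 1) (limma, SE 0.0425, adjusted p 2.68e-07). Per kilobase of exon, the mean level of Dppa4 in ESCs was 32.8 ± 4.67 (SD, n = 3) and that of Dppa2 was 8.15 ± 0.488, and the ranges of these RNA levels did not overlap. With the joined exons of RefSeq, whose span for Dppa2 is the shorter one that gave whole reads, they were 35.6 ± 5.05 and 10.3 ± 0.616.

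Dppa3, also called Stella, encodes a maternal factor that shields the maternal genome from demethylation in the zygote and marks early primordial germ cells. It lies at chr6:122626410-122630272 on the plus strand. Its RPKM was 10.8, 10.9 and 22.3 in ESCs and 0 in all 3 NPC samples. ESC replicates 1 and 2 were nearly equal and replicate 3 was far above them, with no overlap between ESCs and NPCs. The 5496 ESC reads against a floor of 3 reads over the NPC group make Dppa3 at least 1667-fold lower in NPCs. Its fitted difference depends on the pseudocount and is no bound. It was -3.89 on log2(RPKM + 1) (limma, SE 0.265, adjusted p 2.16e-05) and -3.57 without ESC replicate 3, where the SE was 0.0310.

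Dppa5a, also called Esg1, encodes an RNA-binding protein with a KH domain that is abundant in pluripotent cells. It is the shortest gene of the 9 (chr9:78367052-78368177, minus strand, 1.126 kb). Its RPKM was 1307, 1294 and 3131 in ESCs and 0.354, 0.130 and 0.110 in NPCs. Replicate 3 was again the highest ESC sample, and NPC replicate 1 the highest NPC sample, while ESCs and NPCs lay very far apart. The NPC samples held 12, 4 and 4 reads, and the rate of reads was 9448 times as high in ESCs (exact 95% interval 6117 to 15468). From the means of RPKM the ratio was 9645, 6566 without ESC replicate 3 and 15889 without NPC replicate 1, which held most of the NPC reads. Dppa5a fell by 10.51 in NPCs on log2(RPKM + 1) (limma, SE 0.355, adjusted p 7.77e-07), and the difference was -10.09 without ESC replicate 3. It had the most negative difference of all 7758 genes tested, with and without that sample.

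Dazl encodes an RNA-binding protein that controls translation in germ cells and is needed for their survival and for meiosis. Its gene is at chr17:50279395-50293636 on the minus strand. It had 3.16, 2.68 and 3.22 RPKM in ESCs and 0.00467 RPKM in NPC replicate 1, and was at 0 in NPC replicates 2 and 3. The ESC samples differed little, and the NPC samples together held 2 reads, both in replicate 1. Against 4224 reads in ESCs this is a ratio of 1922 with an exact 95% interval of 532 to 15878. Dazl fell by 2.00 in NPCs on log2(RPKM + 1) (limma, SE 0.0628, adjusted p 5.77e-07). Among Dazl, Ddx4, Mael, Stk31 and Sycp3, the genes with roles in later germ cells, Dazl was the most abundant in ESCs, at 11.2 ± 1.11 exon RPKM (SD, n = 3).

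Ddx4, Mael, Stk31 and Sycp3 stayed below 1 RPKM in every sample, so the filter on low values, 1 RPKM in at least 3 samples, left them without a test on log2(RPKM + 1). They were tested without the filter, and also as RPM (RPKM multiplied by the length of the gene in kilobases) on log2(RPM + 0.1), a scale added after the values had been seen, on which the length of introns plays no part. Over all 9 genes and all settings in which each was tested, the adjusted p from limma lay between 2.08e-10 and 0.00116.

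Ddx4, the mouse counterpart of Vasa, encodes a DEAD-box RNA helicase of the germ granules in which piRNAs are made. Its gene spans 54.1 kb (chr13:112598333-112652475, minus strand). Its RPKM was 0.0607, 0.0635 and 0.0456 in ESCs and 0.00245, 0.00135 and 0.00457 in NPCs. These are 112, 116 and 76 reads in ESCs and 4, 2 and 8 in NPCs, so that the groups did not overlap and ESC replicate 3 was the lowest of its group. The rate of reads was 19.8 times as high in ESCs (exact 95% interval 11.6 to 36.6). Ddx4 fell by 3.70 in NPCs as RPM (limma, SE 0.289, adjusted p 2.88e-05; difference -3.84 without ESC replicate 3) and by 0.08 on log2(RPKM + 1) without the filter (limma, adjusted p 0.000300), and its adjusted p over all settings lay between 1.28e-06 and 0.000468.

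Mael encodes a protein of the same granules that acts in the silencing of transposons by piRNAs. It lies at chr1:166201201-166238747 on the minus strand. Its RPKM was 0.0563, 0.0426 and 0.0623 in ESCs and 0.00177, 0.00293 and 0.000825 in NPCs. The groups did not overlap, although the NPC values rest on 2, 3 and 1 reads against 72, 54 and 72 in ESCs. The rate of reads was 30.0 times as high in ESCs (exact 95% interval 13.6 to 82.8). Mael fell by 3.66 in NPCs as RPM (limma, SE 0.242, adjusted p 1.27e-05; difference -3.55 without ESC replicate 3), with an adjusted p between 1.33e-06 and 0.000397 over all settings.

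Stk31 encodes a protein with a Tudor domain and a kinase-like domain that is found with PIWI proteins in male germ cells. Its gene is the longest of the 9, at 73.9 kb (chr6:49395604-49469501, plus strand). Its RPKM was 0.0994, 0.0786 and 0.114 in ESCs, and it was at 0 in NPC replicates 1 and 2 and at 0.00126 in NPC replicate 3. ESCs held 250, 196 and 260 reads and NPCs 3, all in replicate 3, without overlap of the groups. The ratio of rates was 214 with an exact 95% interval of 73.0 to 1041. On the RPM scale it fell by 5.86 in NPCs (limma, SE 0.307, adjusted p 4.03e-06; difference -5.74 without ESC replicate 3), with an adjusted p between 1.25e-07 and 0.000275 over all settings. The pseudogene Gm17060 lies within Stk31 on the other strand and has no line in the tables.

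Sycp3 encodes a protein of the axial and lateral elements of the synaptonemal complex, which holds homologous chromosomes together in meiosis. Its gene (chr10:88459569-88473236, plus strand) lies wholly within Chpt1, which is read from the other strand. Its RPKM was 0.193, 0.189 and 0.181 in ESCs and 0.00971, 0.0188 and 0.00227 in NPCs. The ESC samples were close together at 90, 87 and 76 reads, and the NPC samples scattered at 4, 7 and 1 reads but stayed below all of them. The exact 95% interval of the ratio of rates, ESCs over NPCs, was 10.8 to 37.6. From the means of RPKM the ratio was 18.3, with 31.3 without NPC replicate 2 and 13.2 without NPC replicate 3. Sycp3 fell by 3.59 in NPCs as RPM (limma, SE 0.355, adjusted p 9.94e-05), and its adjusted p over all settings lay between 2.37e-06 and 0.00116. Its values are uncertain, because whether counting used strand is not given in the sources used here, and without strand its reads and those of Chpt1 cannot be told apart. Chpt1 itself had 0.362, 0.321 and 0.232 RPKM in ESCs and 0.447, 0.382 and 0.363 RPKM in NPCs, so its values lay slightly higher in NPCs and did not show the fall seen for Sycp3.

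In each of the 9 genes all ESC samples lay above all NPC samples, an order found for 27.3% of the 18219 genes above 0 in any sample. Of the 9, 5 passed the filter, and all 5 were called lower in NPCs on log2(RPKM + 1), where 33.2% of 7758 genes were called lower and 37.0% higher. These 5 passed through their ESC values alone and had to differ, so this count carries no weight of its own. Without the filter all 9 were called lower, against 22.9% of 18219 genes called lower and 39.5% higher. In the test of RPM all 9 were called lower as well, against 27.8% of 14643 genes lower and 46.0% higher, but 7 of the 9 had no NPC sample at the level of its filter, 0.3 RPM, and had to differ, so this count carries no weight either. Another scaling, by median ratios, moved the median difference of all genes by 0.15 on the log2 scale, from 0.03 to 0.18, and the 5 genes tested there were lower in NPCs as well.

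Between genes, the levels in ESCs spanned more than 3 orders of magnitude on the exon RPKM scale. Dppa5a was at 3476 ± 1922 exon RPKM (SD, n = 3), followed by Dppa3 at 63.6 ± 28.6 and Dppa4 at 32.8 ± 4.67, and the ranges of these 3 genes did not overlap. Without ESC replicate 3 the means were 2366, 47.1 and 30.1, in the same order. Dazl at 11.2 ± 1.11 and Dppa2 at 8.15 ± 0.488 came next, again without overlap. Stk31 at 2.22 ± 0.409 and Sycp3 at 2.03 ± 0.0696 did not differ beyond their spread, and neither did Mael at 1.16 ± 0.218 and Ddx4 at 1.02 ± 0.173. These levels use the joined exons of GENCODE M21. With those of RefSeq, a choice made after the values had been seen, Dazl at 11.5 to 13.8 in the ESC samples stayed above Dppa2 at 9.57 to 10.7, while Mael at 1.31 ± 0.245 and Ddx4 at 0.803 ± 0.137 no longer overlapped, so the relation of Mael to Ddx4 depends on the annotation. In NPCs, Dppa5a at up to 0.644 exon RPKM, Dppa4 at 0.239, 0.199 and 0.261 and Sycp3 at 0.105, 0.203 and 0.0245 had the highest means, but their ranges overlapped and their reads were few, so no order among the genes in NPCs is given.

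Near-identical copies elsewhere in the genome limit what the values of the Dppa genes stand for, since the sources used here do not give how reads with several positions were treated. At 90% identity over at least 50% of the longest transcript, the genome held 7 further copies of Dppa5a on its chromosomes, 3 of Dppa2, 2 of Dppa3 and 2 of Dppa4. At 95% identity there remained 3, 1, 1 and 2. The closest copies of Dppa5a are the pseudogenes Dppa5b and Dppa5c on the same chromosome, each 97.7% identical to it, and Dppa3 has the pseudogene Dppa3-ps on the X chromosome, at 97.7%. None of these pseudogenes had a line in the tables, so the levels of Dppa2, Dppa3, Dppa4 and Dppa5a are uncertain to the extent that reads were shared. A copy of Dppa5a overlaps Pigp, which had 6.87, 5.78 and 16.2 RPKM in ESCs and 2.84, 2.60 and 2.46 RPKM in NPCs. Pigp was highest in ESC replicate 3. Of the fifth of genes with the shortest exons, 93.7% were above the mean of replicates 1 and 2 in that sample. Copies of Dppa3 overlap Cacna1d, which had at most 0.000263 RPKM in ESCs and 0.0263, 0.0211 and 0.0178 RPKM in NPCs, and Rhox3g, which was at 0 in all samples, and neither shared the values of Dppa3. Whether Pigp, Cacna1d or Rhox3g shared reads with the Dppa genes was not tested. For Dazl, Ddx4, Mael, Stk31 and Sycp3 no such copy was found at 90% identity.

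For the 5 genes with a mean of at least 1 RPKM in ESCs, the genes with the most similar pattern were found by the Euclidean distance of log2(RPKM + 1) over the 6 samples, among the 7758 genes tested. Nearest to Dppa2 were 2410137M14Rik, at a distance of 0.10 log2 units, and Zfp819, at 0.15. Zfp819 had 2.28, 2.15 and 2.26 RPKM in ESCs and at most 0.0279 RPKM in NPCs. Nearest to Dppa3 were Nupr1 at 0.31 and Khdc3 at 0.36, and like Dppa3 they were highest in ESC replicate 3, at 22.0 and 18.0 RPKM. Dppa4 was closest to Zfp979 at 0.29 and Ckmt1 at 0.31. Dazl was closest to Magea4 at 0.20 and Lrrc34 at 0.25, and Magea4, with 2.70, 2.44 and 3.16 RPKM in ESCs, was at 0 in all NPC samples. No gene was near Dppa5a, whose closest were Trh at 4.39 and Mt1 at 5.09. Mt1 had 303, 335 and 693 RPKM in ESCs and Trh 313, 334 and 308, so of these genes Mt1 shared the high value of ESC replicate 3 and Trh did not.

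The neighbours of the 9 genes did not all follow them. Dppa3 lies between Gdf3, 16.3 kb away, and Nanog, 77.2 kb away, and on log2(RPKM + 1) Gdf3 fell by 5.33 and Nanog fell by 6.56 in NPCs (limma, adjusted p 2.08e-07 and 1.39e-07), and the difference of Gdf3 was -5.21 without ESC replicate 3. Dppa5a lies 7.93 kb from Ooep, a gene of the oocyte's subcortical complex, which had 29.5, 25.6 and 45.8 RPKM in ESCs and at most 0.0140 RPKM in NPCs. On its other side Gsta2, 11.3 kb away, had at most 0.0144 RPKM in any sample. Dppa2 and Dppa4 are each other's neighbours, and the genes on their outer sides, Gm7275 and Gm5485, were at 0 in all 6 samples. Dazl stood alone in its fall, between Rftn1 at 88.7 kb and Plcl2 at 216 kb. Both were higher in NPCs as RPM, Rftn1 by 1.36 (limma, adjusted p 0.000291; 1.48 without ESC replicate 3) and Plcl2 by 0.34 (adjusted p 0.0375), a call that Plcl2 lost when any sample other than ESC replicate 3 was left out, with adjusted p between 0.0851 and 0.139, and with the replicate number as a block (adjusted p 0.104). Slc38a9, 8.28 kb from Ddx4, was higher in NPCs by 0.88 as RPM (limma, adjusted p 0.00921; 0.64 without ESC replicate 3), and Il31ra, 3.97 kb away on the other side, had at most 0.00333 RPKM. Mael lies between Gpa33, which fell by 1.62 on log2(RPKM + 1) (limma, adjusted p 1.12e-05; -1.74 without ESC replicate 3), and Ildr2, 15.4 kb away, which was higher in NPCs by 6.90 as RPM (limma, adjusted p 2.61e-06; 6.61 without ESC replicate 3).

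Beyond Chpt1, the genes beside Sycp3 are Gnptab, 12.2 kb away, and Mybpc1, 45.0 kb away, and neither was called as RPM (limma, adjusted p 0.741 and 0.891). Without ESC replicate 3, Gnptab was called lower in NPCs (limma, difference -0.42, adjusted p 0.000119). Stk31 lies between Fam221a, 5.06 kb away, and Npy, 353 kb away. Fam221a was higher in NPCs by 0.48 as RPM (limma, adjusted p 0.0141), a call lost without NPC replicate 2 (difference 0.40, adjusted p 0.0733) and with the replicate number as a block (adjusted p just above 0.05), and Npy had at most 0.0523 RPKM.

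The other genes of these pathways were taken from 6 lists. Among 20 regulators of primordial germ cells and of RNA in germ cells, 19 had values and 7 passed the filter, and all 7 were lower in NPCs on log2(RPKM + 1), with a median difference of -2.37, where 33.2% of all 7758 genes tested were lower and their median was 0.03. All 7 were below 1 RPKM in every NPC sample and so passed the filter through their ESC values alone and had to be lower, so the count and the median carry no weight. The same holds for the genes of the next lists that passed, piRNA pathway, meiosis and 2-cell stage, other than Syce2. Tex19.1, a partner in the control of retrotransposons, fell most, from 23.2, 25.9 and 26.2 RPKM in ESCs to at most 0.0142 RPKM in NPCs. Rhox5 had 5.90, 5.23 and 11.2 RPKM in ESCs and 0.312, 0.346 and 0.192 RPKM in NPCs, and is ambiguous because its symbol stands on more than 1 line of the tables. The test of RPM covered 16 genes of the list, of which 14 were lower, 1 higher and 1 not called, against 27.8% of 14643 genes lower and 46.0% higher. Of the 14, 7 had no NPC sample at the level of the filter and had to be lower. Of the 9 genes that reached it in both cell types 7 were lower and 1, Brdt, was higher. Counts of genes that reached a filter in both cell types, here and in the next lists, have no share over all genes beside them. They are not compared with other genes. Of 16 piRNA pathway genes, which include Tex19.1 again, 2 passed the filter and both were lower (median -2.90). The other, Pld6, had 1.94, 1.81 and 2.58 RPKM in ESCs and 0.513, 0.470 and 0.363 RPKM in NPCs. Of these genes 13 were tested as RPM, with 8 lower, 4 higher and 1 not called. Of these, 4 of the lower genes reached the filter in ESCs alone and 2 of the higher ones in NPCs alone and had to differ. Of the 7 that reached it in both cell types 4 were lower and 2 higher. The 4 higher ones were Tdrd1, Tdrd6, Tdrd7 and Tdrkh. Tdrkh had 0.0178, 0.0263 and 0.0228 RPKM in ESCs and 0.822, 0.816 and 0.813 RPKM in NPCs.

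Of 25 genes of the meiotic chromosome and of recombination, 3 passed the filter and all 3 were lower in NPCs, with a median of -1.10. Rec8, the meiotic cohesin subunit, had 1.37, 1.45 and 1.91 RPKM in ESCs and 0.122, 0.130 and 0.168 RPKM in NPCs. Its partner Stag3 had 2.72, 2.62 and 1.86 RPKM in ESCs and 0.590, 0.598 and 0.532 RPKM in NPCs, and Syce2, of the central element of the synaptonemal complex, fell by 0.90 on log2(RPKM + 1) (limma, adjusted p 0.00941; difference -0.64 without ESC replicate 3). Of the 25, 20 were tested as RPM, with 15 lower, 3 higher and 2 not called, against 27.8% of 14643 genes lower and 46.0% higher. Here 7 of the lower genes reached the filter in ESCs alone and 2 of the higher ones in NPCs alone and had to differ. Of the 11 that reached it in both cell types 8 were lower and 1 higher. The 3 higher genes were Spo11, Terb1 and Msh5. Msh5 had 0.112, 0.0899 and 0.0734 RPKM in ESCs and 0.843, 1.08 and 0.981 RPKM in NPCs. Of 24 genes of the 2-cell stage and the oocyte, 23 had values, 3 passed the filter and all were lower, with a median of -4.53 (-4.35 without ESC replicate 3). These were Ooep, Tcl1 and Khdc3. Tcl1 had 19.0, 19.8 and 28.6 RPKM in ESCs and was at 0.00549 RPKM in NPC replicate 1 and at 0 in the others. As RPM, 8 of the list were tested, with 6 lower and 2 higher, but 5 of the lower genes reached the filter in ESCs alone and 1 of the higher ones in NPCs alone, so these counts carry no weight. The 2 higher genes were Gdf9 and Npm2.

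Repressors of germline genes, a list of PRC1.6 subunits, H3K9 methyltransferases and DNA methylation factors, moved in both directions. Of 25, 24 passed the filter, with 12 lower, 6 higher and 6 not called (median -0.39). Over all 7758 genes 33.2% were lower and 37.0% higher. Without ESC replicate 3 the list had 15 lower, 6 higher and 3 not called, and all 7758 genes had 3404 lower and 3410 higher. Of the 24, 18 reached the filter in both cell types, with 10 lower and 2 higher. Among PRC1.6 subunits, Wdr5 had 28.9, 29.0 and 23.3 RPKM in ESCs and 5.68, 5.75 and 5.68 RPKM in NPCs, and L3mbtl2 had 6.59, 6.86 and 6.52 RPKM in ESCs and 1.08, 1.13 and 1.13 RPKM in NPCs. Both fell without overlap of the groups. Ring1, Yaf2 and E2f6 went the other way. Ring1 rose from 2.42, 2.47 and 3.15 RPKM in ESCs to 6.43, 8.15 and 8.48 RPKM in NPCs, Yaf2 from 0.0580, 0.0828 and 0.0747 to 1.16, 1.30 and 1.30, and E2f6 from 0.970, 0.885 and 0.689 to a mean of 2.48, a difference of 0.92 on log2(RPKM + 1) (limma, adjusted p 4.78e-05). Tfdp1, which encodes DP1, fell by 0.58 and Max fell by 0.47 (limma, adjusted p 0.00767 and 0.000986), and the difference of Tfdp1 was -0.73 without ESC replicate 3. Mga, at 6.11, 5.62 and 1.68 RPKM in ESCs and 4.00, 3.86 and 4.01 RPKM in NPCs, was not called (limma, difference -0.02, adjusted p 0.968) but was called lower without ESC replicate 3 (difference -0.47, adjusted p 4.58e-05). The de novo DNA methyltransferase Dnmt3a rose from 0.172, 0.187 and 0.117 RPKM in ESCs to 5.45, 5.32 and 5.02 RPKM in NPCs, a difference of 2.43 on log2(RPKM + 1) (limma, SE 0.0603, adjusted p 2.41e-07). Dnmt3a had the largest rise of the list on that scale. The other de novo enzyme, Dnmt3b, fell from 4.03, 4.35 and 2.78 RPKM in ESCs to 0.537, 0.557 and 0.578 RPKM in NPCs, and the cofactor Dnmt3l from 1.82, 1.76 and 2.41 RPKM in ESCs to at most 0.00765 RPKM in NPCs, and on log2(RPKM + 1) they fell by 1.58 and 1.57 (limma, adjusted p 6.40e-05 and 6.25e-06), with -1.74 for Dnmt3b without ESC replicate 3. Of the 4 demethylation genes, Tet3 was higher and Tet1 lower in NPCs and the others were not called (median 0.28). Tet1 had 7.22, 7.00 and 2.02 RPKM in ESCs and 1.44, 1.25 and 1.36 RPKM in NPCs, and its call (limma, adjusted p 0.0207) was lost when any sample other than ESC replicate 3 was left out, with adjusted p between 0.0569 and 0.0632. Tet2, at 2.70, 2.64 and 0.616 RPKM in ESCs and 2.29, 2.11 and 2.45 RPKM in NPCs, was called lower without ESC replicate 3 (limma, difference -0.16, adjusted p 0.0185), and the list then had 2 genes higher and 2 lower and a median of -0.00. Whether any of these changes bears on the 9 genes was not tested.

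Nucleolar-DamID gave a readout other than RNA. In this method the bacterial methyltransferase Dam, fused to histone H2B and a nucleolar localization signal (H2B-Dam-NoLS), marks DNA at the nucleolus, and H2B-Dam without the signal is the control. ESCs and NPCs had 2 samples of each, in which doxycycline (100 ng/ml) together with Shield1 (1 µM) had induced the fusion for 15 h. According to the paper, these were ESC lines with a Dam transgene inserted at the Rosa26 locus. NPCs made from them were dissociated and replated for the induction. The labels of the RNAseq samples name no Dam fusion and no induction. The deposited lists hold nucleolus-associated domains (NADs) common to both replicates, 1769 in ESCs and 1447 in NPCs, each with a score but with no replicate values, so no test was possible. Of the 9 genes, 2 overlapped a NAD of ESCs with at least 1 base, Ddx4 and Stk31, against 27.2% of 21412 genes with a position. None overlapped a NAD of NPCs, against 21.7% of genes. The count in ESCs is near the background share and is no result about the 9 genes as a group, so the loci are described one by one.

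Ddx4 lies in a NAD of ESCs at chr13:112600120-112700230, which covers 96.7% of the gene and its start and whose score of 0.0335 ranks 569 of 1769. It is the lone ESC NAD within 1 Mb of the gene, and in NPCs the nearest NAD was 1.10 Mb away. Stk31 lies in a NAD of ESCs at chr6:49400358-49500120 that covers 93.6% of the gene but not its start, with a score of 0.0524 that ranks 233 of 1769. In NPCs the nearest NAD to Stk31 ended 95.7 kb before the gene, at chr6:49200290-49299859. Both ESC NADs are about 100 kb long, which is about the length of the bins in which the authors computed the ratio, so their edges are no finer than that. RNA of Ddx4 and Stk31 was thus present at low levels in ESCs and had fewer reads in NPCs. In the lists, which came from the Dam lines, both genes lay in NADs of ESCs and in none of NPCs. Whether the change in NAD bears on the change in RNA was not tested.

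The other 7 genes lay outside the NADs of both cell types. In ESCs Dppa2 was the closest to one, 81.2 kb before a NAD at chr16:48400912-49100318, and Dppa4 was 107 kb from the same NAD. In NPCs the nearest NAD began later, at chr16:48800182, and lay 480 kb from Dppa2 and 506 kb from Dppa4. Dppa5a was 231 kb from a NAD in ESCs and 332 kb in NPCs. Dazl, at 206 kb, and Mael, at 201 kb, were as far from a NAD in NPCs as in ESCs, because the nearest edge was the same in both lists. Sycp3 was 259 kb from a NAD in ESCs and 327 kb in NPCs. Dppa3 was the exception among the genes whose distance changed, at 470 kb in ESCs and 270 kb in NPCs. When the start of the gene had to lie inside, Ddx4 alone remained in an ESC NAD, against 23.7% of genes, and when genes within 100 kb of a NAD were counted, Dppa2 joined in ESCs and Stk31 in NPCs, against 39.9% and 32.3% of genes.

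**Figure D3:**
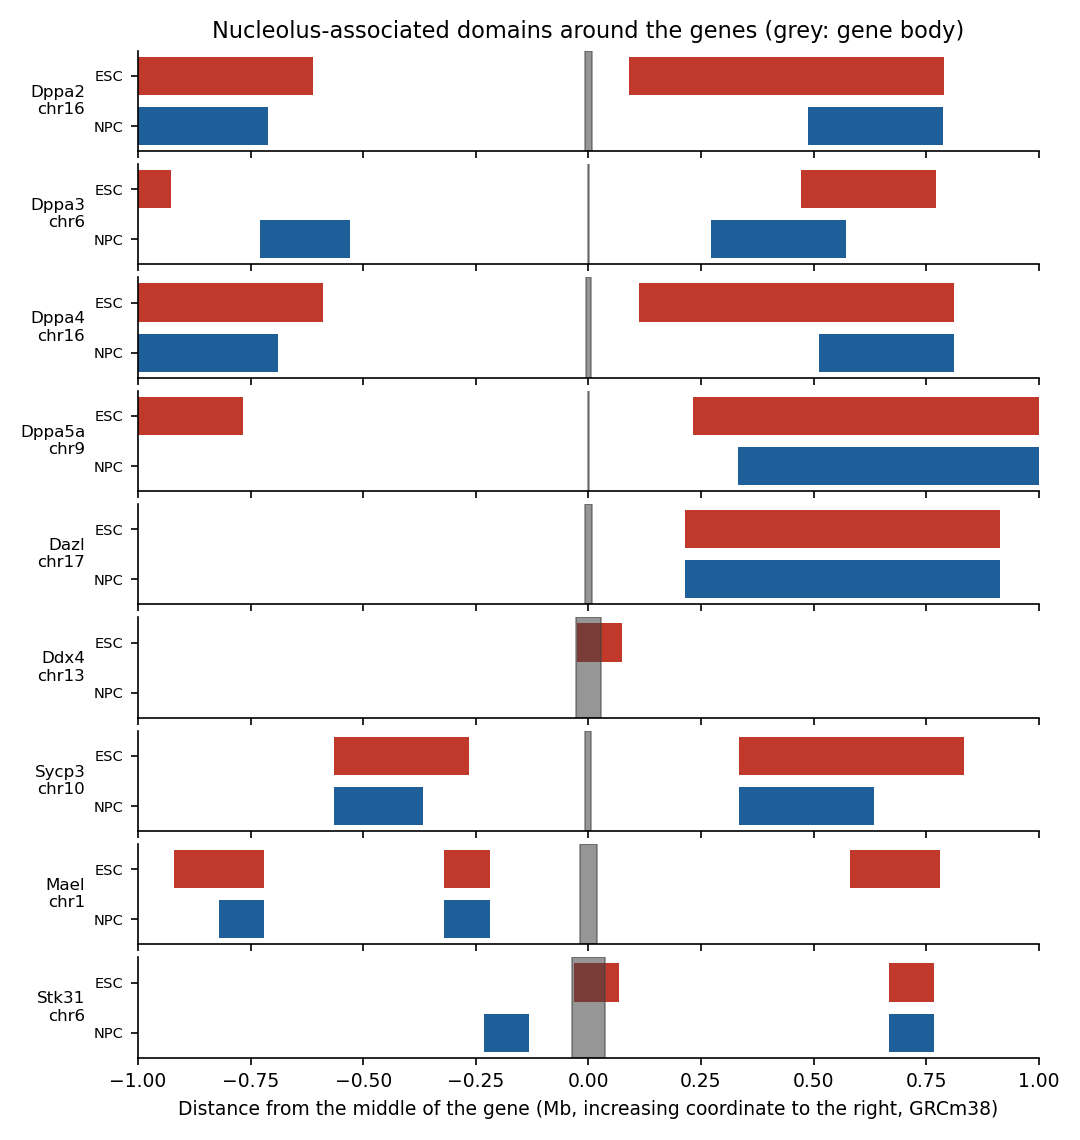
NADs of ESCs (red) and NPCs (blue) within 1 Mb of the middle of each gene, on GRCm38 coordinates in Mb, with the gene body in grey. Ddx4 and Stk31 lie in ESC NADs about 100 kb long that are not in the NPC list, and the other 7 genes lie outside the NADs of both cell types.

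Promoter sequences show what several of the low genes have in common apart from their RNA. RefSeq sequences of GRCm38.p6, from 250 bases before to 50 bases after the start of transcription, were matched by symbol for Dazl, Ddx4, Mael, Stk31 and Sycp3, with 6 entries in all since Stk31 has 2. Dppa2, Dppa3, Dppa4 and Dppa5a had no entry. Both strands were searched for the motif TCCCGC, the core of the site that E2F6 recognises. On the other strand it reads GCGGGA. The second motif was the E-box CACGTG, which reads the same on both strands and is recognised by MAX with its partners. No match of one motif overlapped a match of the other. CACGTG was found in 5 of the 6 entries, all but that of Dazl, against 7.15% of 32851 promoters. The 2 entries of Stk31 overlap and share the same match, so Stk31 is counted in both. TCCCGC was found in 3 of 6, those of Ddx4, Mael and Sycp3, against 20.0% of promoters, and the same 3 held both motifs, against 1.99% of promoters. The median ratio of observed to expected CpG was 0.788 in the 6 entries and 0.384 in all promoters. It was highest for Ddx4, at 0.978, above 92.8% of promoters, and lowest for Sycp3, at 0.666, above 68.5%. Both motifs contain a CpG, and shares among promoters with as much CpG were not computed. The shares over all promoters are therefore not a like background. With the 250 bases before the start alone, the counts of entries were the same, against 6.02% of promoters for CACGTG, 16.9% for TCCCGC and 1.45% for both. A match is a description of letters and not evidence of binding, which was not measured here.

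The 250 bases before the start are shown for the 4 genes that hold CACGTG, 5′ to 3′ on the strand of the gene, with matches to both motifs in capitals (TCCCGC appears as GCGGGA where it lies on the other strand), to show where the motifs lie. They are from chr13:112652311-112652560 (minus strand) for Ddx4, chr1:166238745-166238994 (minus strand) for Mael, chr6:49395289-49395538 (plus strand) for Stk31 and chr10:88459337-88459586 (plus strand) for Sycp3, all on GRCm38.p6.
Ddx4: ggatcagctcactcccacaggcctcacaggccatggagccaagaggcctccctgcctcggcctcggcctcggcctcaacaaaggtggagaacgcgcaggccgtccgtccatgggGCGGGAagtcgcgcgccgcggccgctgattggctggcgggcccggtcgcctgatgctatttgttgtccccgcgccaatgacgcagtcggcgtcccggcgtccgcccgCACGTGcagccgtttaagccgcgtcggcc
Mael: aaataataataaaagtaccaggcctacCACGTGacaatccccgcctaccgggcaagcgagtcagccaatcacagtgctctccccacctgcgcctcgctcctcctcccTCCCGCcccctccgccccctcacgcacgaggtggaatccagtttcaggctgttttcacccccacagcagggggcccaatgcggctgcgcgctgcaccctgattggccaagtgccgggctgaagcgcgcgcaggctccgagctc
Stk31: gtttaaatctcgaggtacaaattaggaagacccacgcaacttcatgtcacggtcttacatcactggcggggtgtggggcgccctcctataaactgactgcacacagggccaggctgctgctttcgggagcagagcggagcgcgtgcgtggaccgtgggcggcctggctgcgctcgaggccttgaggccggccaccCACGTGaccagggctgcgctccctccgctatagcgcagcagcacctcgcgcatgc
Sycp3: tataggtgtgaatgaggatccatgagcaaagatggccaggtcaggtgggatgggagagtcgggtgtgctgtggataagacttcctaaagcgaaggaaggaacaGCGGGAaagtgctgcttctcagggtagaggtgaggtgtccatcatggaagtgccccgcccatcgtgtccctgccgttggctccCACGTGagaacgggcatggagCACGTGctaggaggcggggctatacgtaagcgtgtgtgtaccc
Positions are distances of the first base of a match before the start of the entry. CACGTG lay 29 bases before the start in Ddx4, 55 in Stk31, 64 and 43 in Sycp3 and 223 in Mael. The start of transcription in the Ddx4 entry lies inside the gene, which reaches chr13:112652475 in GENCODE M21 and chr13:112652633 in RefSeq. Its matches to both motifs thus lie within the gene. TCCCGC lay 143 bases before the start in Mael, and its complement 136 bases before in Ddx4 and 147 in Sycp3. A further match in Mael, on the other strand, lay within the 50 bases after the start and is not in the sequence shown. The second entry of Stk31 starts further along the same strand and holds the same CACGTG.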

How the data were processed

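RNAseq of 3 ESC and 3 NPC samples and the NAD lists of both cell types were used, and ChIPseq was not used here. For RNAseq, the authors left out rRNA reads (SortMeRNA), trimmed (Trimmomatic) and aligned the rest to mm10, which is GRCm38 (STAR), counted coverage of exons and deposited RPKM per gene. The sources used here do not give annotation, strand use or the treatment of reads with several positions, and the labels and the methods name different library kits. They also list Subread 1.4.6-p4 among the tools. For Nucleolar-DamID, the authors aligned with Bowtie2 2.3.4.3, called domains with the damidseq pipeline and find_peaks and deposited 1 score per NAD over both replicates.

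Genes with at least 1 RPKM in at least 3 of 6 samples were tested, NPC minus ESC, with limma 3.58.1 in R 4.3.3 (lmFit, eBayes with trend) on log2(RPKM + 1). P-values are two-sided with Benjamini-Hochberg adjustment, and genes were called at an adjusted p below 0.05. Of 22064 table lines, symbols on more than 1 line (153) were left out of the fits unless listed. The test was checked on simulated data. Reads were recovered as RPKM times gene length and depth, with the GENCODE M21 length or, where it gave reads nearer to whole numbers (Dppa2, Dppa4, Dazl), the RefSeq length. RPM, which is RPKM times gene length in kilobases, was tested with a pseudocount of 0.1 over genes with at least 0.3 RPM in at least 3 samples. Ratios of reads carry exact Clopper-Pearson 95% intervals, and a gene at 0 in a group was set against 3 reads over the group. Copies were found with blastn 2.17.0. The rest ran in Python 3.11.15 (pandas 2.3.3, numpy 2.4.6, scipy 1.17.1; figures with matplotlib 3.10.9).

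The genes and the 6 pathway and 6 marker lists were chosen with earlier results of these data known. Named genes are the 9, all markers, in each pathway list the called genes that rose most (2) and fell most (2) or, where fewer were called, up to 2 of the highest RPKM in ESCs, the 2 nearest patterns, and the nearest gene on each side. Khdc3, Chpt1, Gm17060, Pigp, Cacna1d, Rhox3g, Dnmt3b, Dnmt3l, E2f6, Tfdp1, Max, Mga and Yaf2 were named after their values were seen. So were Brdt, Tdrd1, Tdrd6, Tdrd7, Tdrkh, Spo11, Terb1, Msh5, Gdf9 and Npm2, the genes of the germline lists called higher as RPM. Alternatives were other pseudocounts, filters and scalings, no trend, a block for the replicate number, each sample left out in turn, other rules for NAD overlap, and a shorter promoter window. RPM, exon RPKM, its joined exons from RefSeq and no filter with a pseudocount of 0.1 were added after the data had been seen.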

Additional observations from a re-analysis of the deposited data

How the results depend on the processing

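All 9 genes were lower in NPCs and kept an adjusted p below 0.05 in limma in every setting in which they were tested. The number of the 9 called lower, 5 with the filter, was 9 without it, 9 without it at a pseudocount of 0.1, 7 as exon RPKM, where Ddx4 and Mael were below the filter, and 9 as RPM, with each sample left out in turn and with the replicate block as well. The number of genes called was 5444, and 11368 without the filter, 11523 without it at a pseudocount of 0.1, 8648 as exon RPKM and 10813 as RPM (9476 to 12906 with a sample left out), settings in which more genes were tested, and 2227 with a difference of at least 1. With a sample left out it was 4568 to 6814 on RPKM. Of listed pathway genes 34 were called (32 to 39 with a sample left out), and 81, 82, 51 and 72 without the filter, without it at a pseudocount of 0.1, as exon RPKM and as RPM (69 to 78 with a sample left out). Median-ratio scaling moved the share of calls that were lower in NPCs from 47.2% to 37.8%. The count of the 9 in NADs of ESCs, 2, was 1 by the start of the gene, and the count in NADs of NPCs, 0, was 1 for genes within 100 kb.

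The replicate numbers do not pair the samples: the deviations of samples with the same number correlated at 0.114, -0.0852 and 0.0305, and ESC replicate 1 and NPC replicates 1 and 3 correlated best with their own number while the other samples did not. With the replicate block 5162 genes were called in place of 5444, and as RPM 10395, with 71 listed pathway genes. Of 80 named genes with a test, 7 changed a call under some setting, none of them among the 9, and these were Mixl1, Tet1, Tet2, Mga, Plcl2, Gnptab and Fam221a. The 80 do not include the genes of the germline lists named because they were called higher as RPM.

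With 20 or fewer reads in NPCs for every gene of the 9 but Dppa4, the depth limits their NPC levels and ratios. Groups of 3 from 1 cell line in different media give differences between these cultures, and the excess of short genes in ESC replicate 3 was not removed from any value.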
